A study of Bos taurus with 16 samples.

Results

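Transforming growth factor beta (TGF-beta) signalling was followed after calving in the inner lining of the uterus, the endometrium, in 4 cows described as fertile. The genes described are the ligands TGFB1, TGFB2 and TGFB3, the receptors TGFBR1, TGFBR2 and TGFBR3, the intracellular mediators SMAD3 and SMAD7, the latency binding protein LTBP1, and TGFBI. They were taken by name, as every probe for a bovine sequence on the array whose design name equals one of these symbols. Of the 10 genes, 9 had a probe under their name and TGFBI is not analysed here. The 9 genes had 21 of the 43653 probes of the array, and 18 of these 21, from 8 genes, were bright enough to be among the 33182 probes tested.

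Each cow was biopsied 4 times from the uterine horns with forceps, at nominal days 10, 30, 50 and 100, which were true days 9 to 10, 29 to 30, 49 to 51 and 99 to 100. The labels name no treatment, and all groups consist of the same 4 animals. Every time therefore has 4 arrays, 1 per cow, and the comparisons ask how the later times differed from the earlier ones within a cow. The 4 arrays of a cow shared a slide, and every time had its own position on the slide, so time and slide position cannot be told apart.

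TGF-beta ligands are secreted in a latent form that latency binding proteins such as LTBP1 tether to the extracellular matrix. Once released, a ligand binds the type II receptor TGFBR2, which recruits and activates the type I receptor TGFBR1, and TGFBR3 (betaglycan) presents ligands, TGFB2 above all, to this pair. The active receptor phosphorylates SMAD2 and SMAD3, which enter the nucleus with SMAD4, while SMAD7 is a target of the pathway that inhibits the receptor. In the uterus and in other tissues the pathway is known for matrix production, wound repair and restraint of inflammation.

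The measurement of each gene rests on 60-base probes, and the letters of the probes that carry the results below are printed 5′ to 3′ as deposited. The first 4 are those of the ligands, among them TGFB2 with 2 called differences, and the others belong to TGFBR2 and TGFBR3, whose probes did not move alike. Capitals mark a polyadenylation hexamer, AATAAA or ATTAAA, searched on the printed strand only, which 12.7% of all probes hold.
TGFB1: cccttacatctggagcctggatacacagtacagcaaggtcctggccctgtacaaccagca
TGFB2: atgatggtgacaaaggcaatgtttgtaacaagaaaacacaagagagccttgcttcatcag
TGFB3 probe 1: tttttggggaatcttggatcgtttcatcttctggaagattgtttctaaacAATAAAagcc
TGFB3 probe 2: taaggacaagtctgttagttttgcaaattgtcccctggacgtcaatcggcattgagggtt
TGFBR2 probe 1: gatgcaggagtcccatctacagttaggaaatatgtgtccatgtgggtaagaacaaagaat
TGFBR2 probe 2: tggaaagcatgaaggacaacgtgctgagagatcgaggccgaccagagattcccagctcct
TGFBR3 probe 1: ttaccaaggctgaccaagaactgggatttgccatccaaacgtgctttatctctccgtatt
TGFBR3 probe 2: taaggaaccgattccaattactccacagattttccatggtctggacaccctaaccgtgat
TGFBR3 probe 3: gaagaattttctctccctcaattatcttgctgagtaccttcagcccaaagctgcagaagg

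Among these, the hexamer was found in TGFB3 probe 1 alone, and outside the printed set only SMAD3 probe 1 held one. Probes of a gene are numbered by their mean level, with probe 1 the brightest. On bovine build Btau_3.1, TGFB1 was placed at chr18:50176062-50176825 on the minus strand, a span of 764 bases for a 60-base probe, and TGFB2 at chr16:20930945-20931004 on the plus strand. TGFB3 probe 1 lay at chr10:89827728-89827787 and probe 2 at chr10:89828216-89828275, both on the minus strand. TGFBR2 probe 1 lay at chr22:5123773-5123832 and probe 2 at chr22:5119194-5119253, both on the plus strand. The TGFBR3 probes lay on the plus strand at chr3:55120207-55120266 for probe 1, chr3:55132348-55134711 for probe 2 and chr3:55098656-55098715 for probe 3. Positions relative to exons and untranslated regions were not analysed here. The longest run of bases shared by probes of different genes of this set, SMAD2 included, was 9.

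Levels below are log2 intensities relative to the percentile 75 of the array, so a difference of 1 is a doubling, and a level is compared with other levels of the same probe only. Differences are later minus earlier time from limma's fit over all tested probes, with adjusted p-values over these probes and a threshold of 0.05. A fall in bulk tissue can come from fewer cells of a type or from less RNA per cell, which cannot be told apart. The biopsies also differed in makeup. The mean level of 9 measured epithelial markers, relative to all arrays, stood at 2.63 in cow 1 and -3.13 in cow 2 at day 100, and that of 9 smooth muscle markers at -3.80 in cow 1 and 2.38 in cow 2. At least 8 of the 9 epithelial markers were well above background on every array, and so were all 9 smooth muscle markers.

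TGFB2 was the ligand with the clearest change: it was highest at day 10 in every cow and fell by 2.24 at day 50 and fell by 2.52 at day 100 on the log2 scale. TGFB1 and TGFB3 were also lower on average at each later time, without passing the threshold. At day 50 relative to day 10, 1 of the 18 tested probes of the set was called, which is 5.56%, against 1.65% of all tested probes. At day 100 relative to day 10, 2 of 18 were called, which is 11.1%, against 4.6% of all tested probes. At day 30 none of the 18 was called, against 0.419% of all tested probes, and 6 had an unadjusted p below 0.05, all of them lower than at day 10, against 8.19% lower and 5.84% higher of all tested probes.

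TGFB2, the isoform with the strongest dependence on TGFBR3 for receptor binding, had levels of -0.74, -0.99, -0.67 and -0.97 in cows 1 to 4 at day 10. At day 30 its levels were -1.99, -2.08, -1.42 and -1.23. At day 50 they were -2.90, -3.22, -3.38 and -2.81, and at day 100 they were -4.29, -2.30, -3.69 and -3.16. Every later array lay below every day 10 array, and day 50 also lay below day 30 without overlap, while day 100 overlapped with day 50, with cow 2 at day 100 above all day 50 arrays. The day 10 values were close together, at -0.84 ± 0.16 (SD, n = 4), and day 100 was the most spread, at -3.36 ± 0.85 (SD, n = 4). The difference from day 10 was -0.84 ± 0.36 (SE) at day 30, which did not pass the test (limma, adjusted p = 0.336).

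At day 50 TGFB2 was 4.71-fold lower than at day 10, with a difference of -2.24 ± 0.36 (SE, lower in 4 of 4 cows, limma, adjusted p = 0.0203). At day 100 it was 5.72-fold lower, with a difference of -2.52 ± 0.36 (SE, lower in 4 of 4 cows, limma, adjusted p = 0.00755). TGFB2 was the probe of the set with the smallest p in limma's F test over the 4 times (adjusted p = 0.0220), a test that called 1.03% of all probes. At day 50 the call did not hold when cow 1 (adjusted p = 0.0978), cow 3 (0.158) or cow 4 (0.0736) was left out, nor when certain single arrays were, namely the day 10 arrays of cows 1 (0.0826) and 3 (0.0577) and the day 50 arrays of cows 1 (0.0586), 2 (0.0819) and 3 (0.0787). The day 100 call held without any single array, but not with cow 1 (adjusted p = 0.0651), cow 3 (0.0875) or cow 4 (0.0580) left out, nor with only the 8 arrays of the 2 times (0.124).

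TGFB1, the isoform best known from immune cells and platelets, was a dim probe but well above background on all 16 arrays. Its levels at day 10 were -3.44, -5.04, -4.13 and -3.46 in cows 1 to 4. They were -4.94, -5.08, -4.45 and -5.51 at day 30, -4.91, -5.36, -5.08 and -4.12 at day 50, and -5.36, -5.36, -5.85 and -5.04 at day 100. Cows 1 and 4 were the highest at day 10, and cow 2 at day 10 already lay in the range of the later times. Day 100 did not overlap with day 10, by a narrow margin, whereas days 30 and 50 did.

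The TGFB1 difference from day 10 was -0.98 ± 0.36 at day 30 (SE, limma, adjusted p = 0.256) and -0.85 ± 0.36 at day 50 (SE, limma, adjusted p = 0.232). At day 100 it was -1.38 ± 0.36 (SE, lower in 4 of 4 cows), just short of the threshold with an adjusted p of 0.0503 by limma. Over 31 alternative settings this p ran from 0.0238 to 0.217 and was below the threshold in 8. The difference itself ran from -1.74 to -0.48, and was smallest under normexp background correction.

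TGFB3, an isoform tied in mice to palate closure and studied in scarless repair, was measured by 2 tested probes that followed each other closely. The root mean square difference between them over 16 arrays was 0.164 after each was centred on its mean. Probe 1 had levels of 2.81, 2.60, 2.04 and 2.02 in cows 1 to 4 at day 10 and 1.59, 1.59, 1.50 and 2.96 at day 30. At day 50 its levels were 1.22, 1.33, 0.99 and 0.75, and at day 100 they were -0.45, 2.38, 0.16 and 1.35. All day 50 arrays lay below all day 10 arrays, while at day 100 cow 2 was inside the day 10 range and cows 1 and 3 were far below it.

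The probe 1 difference from day 10 was -0.45 ± 0.50 at day 30, -1.30 ± 0.50 at day 50 and -1.51 ± 0.50 at day 100 (SE, limma, adjusted p = 0.704, 0.194 and 0.0942). Probe 2 gave -0.70, -1.36 and -1.73 for the same times, with adjusted p-values by limma of 0.531, 0.159 and 0.0598. Over 31 alternative settings, probe 2 passed the threshold at day 100 in 6 (limma, adjusted p = 0.0126 to 0.265) and probe 1 in 1. The lowest p of probe 2 came without the day 100 array of cow 2, with a difference of -2.23. Leaving out cows or arrays moved the day 100 count of all called probes between 75 and 3104, from 1527. TGFB3 probe 3 was well above background on 3 of 16 arrays, 2 at day 10 and 1 at day 30, and was not tested.

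**Figure D1:**
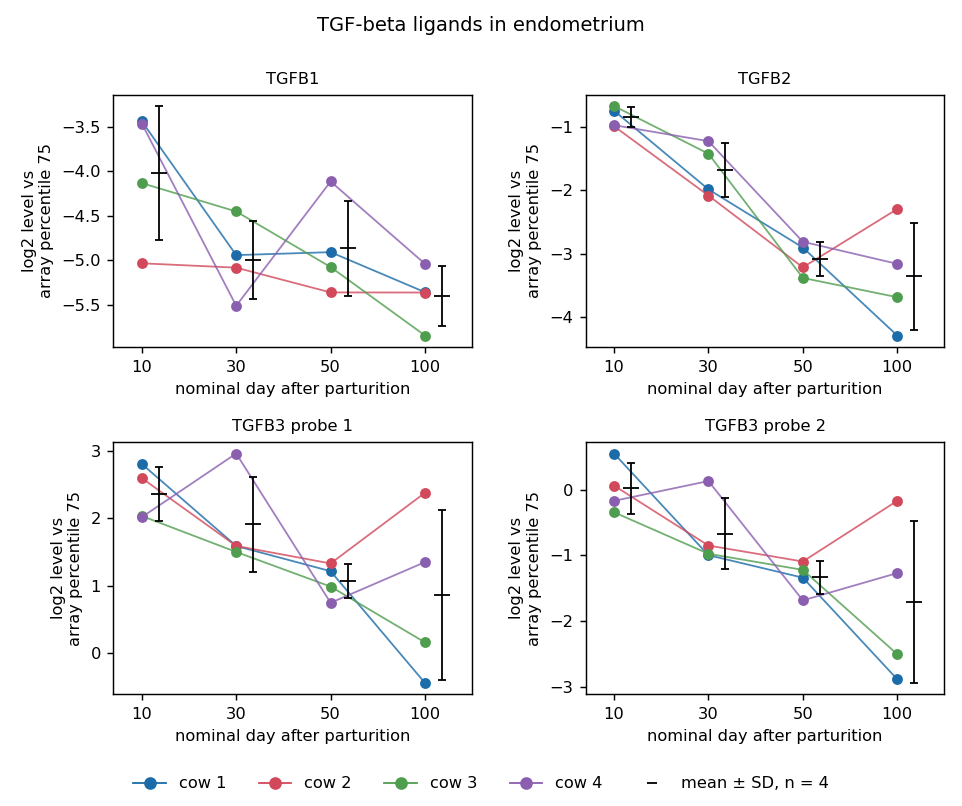
Levels of the 3 ligands against nominal day after parturition, as log2 intensity relative to the array percentile 75, with a coloured point and line per cow and the mean ± SD of 4 arrays in black. TGFB2 lies between -0.99 and -0.67 at day 10 and below that range at all later times, and the day 100 arrays of TGFB3 spread from -0.45 to 2.38 for probe 1.

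The levels of some marker lists also changed over these times. All 8 macrophage markers were measured, and 5 fell at day 30, 5 at day 50 and 8 at day 100 relative to day 10, with median differences of -2.26, -1.95 and -2.27. The level of the macrophage list ranged from 1.06 to 2.61 at day 10, from -1.24 to 0.32 at day 30, from -1.48 to 0.88 at day 50 and from -1.25 to 0.01 at day 100. Here and below, steps within a cow were compared with the macrophage, smooth muscle, epithelial, fibroblast and neutrophil lists only. They were not counted over all tested probes, so no such share stands beside them. Of 12 steps from one time to the next within a cow, the TGFB1 level moved in the same direction as the macrophage list in 11 and TGFB2 in 10. Both TGFB3 probes did so in 8, and moved in the same direction as the smooth muscle markers in 10 and as the epithelial markers in 2. Cows 1 and 2 at day 100, the lowest and the highest array of TGFB3 probe 1 at that time, were also the lowest and the highest in smooth muscle markers, at -3.80 and 2.38. They were the lowest and the highest in fibroblast markers as well, at -1.57 and 0.27, and cow 1 was the lowest in endothelial markers, at -1.42. TGFB2 moved with the fibroblast and the neutrophil list in 9 steps each, and both TGFB3 probes did so in 7 each. The neutrophil list rests on 4 of its 7 genes, namely S100A8, S100A9, S100A12 and MMP9. CSF3R had no probe, and CXCR2 and CAMP had none bright enough to be tested. The 4 measured markers were at 5.86 and 5.43 in cows 1 and 4 at day 10, against 1.74 and 0.89 in cows 2 and 3. Cows 1 and 4 were also those with the highest day 10 levels of TGFB1. Cows 1 and 4 were likewise highest at day 10 in the epithelial (1.16 and 1.08), macrophage (1.51 and 2.61) and fibroblast lists (0.82 and 0.65). The same held for the T and NK cell list (0.79 and 1.22) and the B and plasma cell list (0.27 and 0.60). TGFB1 moved with the smooth muscle list in 5 of the 12 steps, the neutrophil list in 6, the epithelial list in 7 and the fibroblast list in 8. The part of these cells in the ligand values was not tested.

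Of the receptors, only TGFBR2 had a called difference, in 1 of its 2 probes. TGFBR2 probe 2 was 4.29-fold lower at day 100 than at day 10, while probe 1 was 1.62-fold lower and did not pass. TGFBR1 was lower at days 50 and 100 without passing the threshold. The 3 probes of TGFBR3 gave no called difference and did not move alike.

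TGFBR2 encodes the receptor that binds the ligand first. Its bright probe 1 had levels of 3.06, 1.46, 1.81 and 2.93 in cows 1 to 4 at day 10, 1.77, 0.68, 1.84 and 2.44 at day 30, 1.57, 1.46, 2.16 and 2.43 at day 50, and -0.15, 1.92, 2.57 and 2.13 at day 100. The groups overlapped at all times, and the lowest array was cow 1 at day 100. The difference from day 10 was -0.63, -0.41 and -0.70 at days 30, 50 and 100, each ± 0.51 (SE), with adjusted p-values by limma of 0.604, 0.717 and 0.411.

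TGFBR2 probe 2 had levels of -1.87, -4.22, -3.93 and -3.13 in cows 1 to 4 at day 10 and -3.94, -5.17, -4.49 and -5.82 at day 30. Its levels were -4.14, -4.57, -4.37 and -3.90 at day 50 and -6.24, -5.13, -5.35 and -4.83 at day 100. All day 100 arrays lay below all day 10 arrays and below all day 50 arrays, and day 30 overlapped with day 10. The probe fell by 2.10 on the log2 scale at day 100 relative to day 10 (SE 0.52, 4 of 4 cows lower, limma, adjusted p = 0.0438), and the differences of -1.57 at day 30 and -0.96 at day 50 did not pass (limma, adjusted p = 0.211 and 0.349).

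The TGFBR2 probe 2 call held in 9 of 31 alternative settings, with adjusted p-values from 0.0277 to 0.197 over all 31. It was lost under quantile normalisation (-1.82, adjusted p = 0.0659), under normexp background correction (-0.81, 0.0784) and without a filter on dim probes (0.0553). It was also lost when any 1 of the 4 cows was left out, with values of -1.34 without cow 1, -2.50 without cow 2, -2.33 without cow 3 and -2.23 without cow 4. Of 16 single arrays left out in turn, 3 kept the call, namely the day 10 array of cow 2, the day 30 array of cow 4 and the day 100 array of cow 2, and the values ran from -2.37 to -1.55. After centring, the 2 probes differed by a root mean square of 0.836 over the 16 arrays, against 0.250 for the 2 probes of TGFBR1.

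TGFBR1, the kinase that phosphorylates SMAD2 and SMAD3, was dim, with probe 1 well above background on 13 arrays and probe 2 on 10. Probe 1 had levels of -5.14, -5.67, -5.76 and -4.81 in cows 1 to 4 at day 10, -5.26, -4.64, -5.33 and -5.31 at day 30, -6.08, -5.99, -6.00 and -6.02 at day 50, and -6.28, -5.37, -7.12 and -6.30 at day 100. The day 50 arrays were all below day 10 and close together, while cow 2 at day 100 was inside the day 10 range. Differences from day 10 were 0.21, -0.68 and -0.92 at days 30, 50 and 100, each ± 0.30 (SE, limma, adjusted p = 0.779, 0.263 and 0.0939). Probe 2 gave 0.00, -0.63 and -1.06, with an adjusted p of 0.0584 at day 100 by limma, and at that time 1 of its 4 arrays was well above background, against 3 of 4 at day 10.

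TGFBR3 probe 1 had levels of -1.20, 0.20, -0.15 and -1.81 in cows 1 to 4 at day 10, 0.78, -0.17, 0.31 and -1.50 at day 30, 0.31, 0.63, 0.10 and -0.24 at day 50, and -1.51, 1.10, -1.04 and 0.01 at day 100. Its groups overlapped at all times, and its difference from day 10 was 0.60, 0.94 and 0.38 at days 30, 50 and 100, each ± 0.55 (SE, limma, adjusted p = 0.645, 0.386 and 0.686). Probe 2 had levels of -0.94, -1.27, -1.70 and -0.63 at day 10, -2.42, -1.27, -1.74 and 0.93 at day 30, -0.61, 0.09, -0.30 and -0.29 at day 50, and -0.42, -0.17, 1.73 and 0.50 at day 100. All its day 50 and day 100 arrays lay above all its day 10 arrays.

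The probe 2 difference from day 10 was 0.01, 0.85 and 1.54 at days 30, 50 and 100, each ± 0.57 (SE, limma, adjusted p = 0.997, 0.455 and 0.123). Probe 3 gave 0.35, 0.67 and -0.40 (limma, adjusted p = 0.792, 0.531 and 0.656), so that the sign at day 100 differed between probes. Probe 3 followed probe 1, with a centred root mean square difference of 0.386, whereas probe 2 differed by 1.55 from probe 1 and by 1.65 from probe 3. No single statement on the direction of TGFBR3 holds for its 3 probes at day 100.

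**Figure D2:**
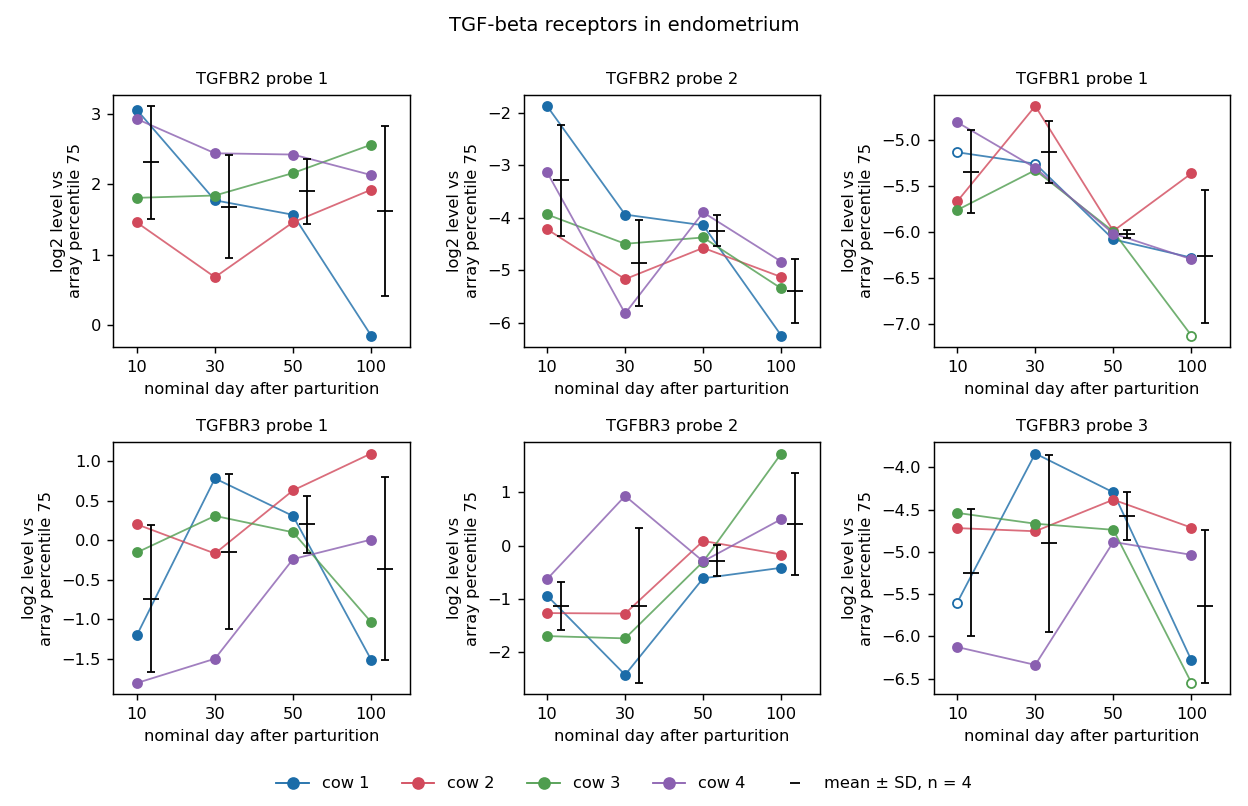
Levels of 6 receptor probes against nominal day after parturition, as log2 intensity relative to the array percentile 75, with a point and line per cow, open points where a spot was not well above background, and mean ± SD of 4 arrays in black. TGFBR2 probe 2 is lower on all 4 arrays at day 100 than at day 10, TGFBR2 probe 1 overlaps, and TGFBR3 probe 2 runs apart from TGFBR3 probes 1 and 3.

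SMAD3, which carries the signal of the active receptor to the nucleus, was lower on average at each later time by all 3 tested probes, and none passed the threshold. Probe 1 had levels of 0.65, -1.06, -0.73 and 0.26 in cows 1 to 4 at day 10, -1.22, -1.49, -0.82 and -1.27 at day 30, -1.14, -1.02, -0.86 and -0.96 at day 50, and 0.07, -1.26, -1.39 and -1.27 at day 100. Cows 1 and 4 were high at day 10, and at day 100 cow 1 was the only high array. These 2 cows also had the highest neutrophil marker levels at day 10, and cow 1 the highest at day 100, at 1.64, against -2.80 to -0.18 in the other cows. The epithelial markers had the same order of extremes at day 10, at 1.16, -2.64, -1.11 and 1.08 in cows 1 to 4. They were highest in cow 1 at day 100, at 2.63. Cows 1 and 4 were also highest at day 10 in macrophage and fibroblast markers. So were they in markers of B and plasma cells (0.27 and 0.60) and of T and NK cells (0.79 and 1.22). Cow 1 at day 100 was also highest for B and plasma cells (1.58), T and NK cells (0.27) and erythroid markers (3.85). Cow 1 was lowest at that time in smooth muscle (-3.80), fibroblast (-1.57) and endothelial markers (-1.42). Of the 12 steps within cows, SMAD3 probe 1 moved in the same direction as the epithelial list in 9, the macrophage list in 9 and the neutrophil list in 6, and probe 2 moved with the macrophage list in 10. The part of any of these cells was not tested.

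The SMAD3 differences from day 10 ran from -1.44 to -0.98 at day 30, from -1.48 to -0.77 at day 50 and from -1.46 to -0.74 at day 100 over the 3 probes, with the lowest adjusted p at 0.0940 by limma. SMAD3 probe 2 did not overlap with day 10 at days 30 and 50, and probe 3 did not at day 50. SMAD3 probes 2 and 4 carry a description as SMAD2 protein in the files, although their design name is SMAD3 and they lie among the other SMAD3 probes on chromosome 10. Probe 4 was well above background on 3 arrays and was not tested.

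SMAD7, the inhibitory SMAD, was well above background on 1 of 16 arrays, that of cow 1 at day 10, with a level of -4.10. The other 15 arrays, all not well above background, read -9.31 to -7.61. It was not tested, and its response cannot be followed with this probe.

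LTBP1, which holds latent ligand in the matrix, varied widely between arrays, with ranges of 4.15 to 5.40 on the log2 scale over its 4 probes, against 4.38 for TGFBR2 probe 2. The range of 5.40 is that of probe 4, which was well above background on 10 of 16 arrays. LTBP1 was higher on average at day 30 than at day 10 by all 4 probes, by 1.38 to 1.71 on the log2 scale, and none passed the test (limma, adjusted p = 0.368 to 0.538). Probe 1 had levels of -0.20, 3.14, 2.70 and -0.76 in cows 1 to 4 at day 10, 3.03, 3.40, 2.73 and 2.56 at day 30, 1.28, 2.49, -0.83 and 1.52 at day 50, and -0.77, 2.90, -0.22 and 0.95 at day 100. All cows were high at day 30, cow 2 was high at all times, and cows 1 and 4 were low at day 10.

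The smooth muscle list, relative to all arrays, had levels of -1.79, 1.77, 1.40 and -1.91 in cows 1 to 4 at day 10, 2.02, 1.89, -0.33 and 1.19 at day 30, -0.04, 1.76, -1.69 and -1.18 at day 50, and -3.80, 2.38, -1.92 and 0.25 at day 100. LTBP1 probe 1 moved in the same direction as this list in 9 of the 12 steps within cows, probes 2 and 4 in 8 each, and probe 3 in 11. With the smooth muscle level minus the epithelial level as a covariate, the LTBP1 probe 1 difference at day 30 was 1.12 in place of 1.71, and it passed in neither fit. No smooth muscle marker was called at any time, and the share of muscle in each biopsy was not tested as a cause.

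**Figure D3:**
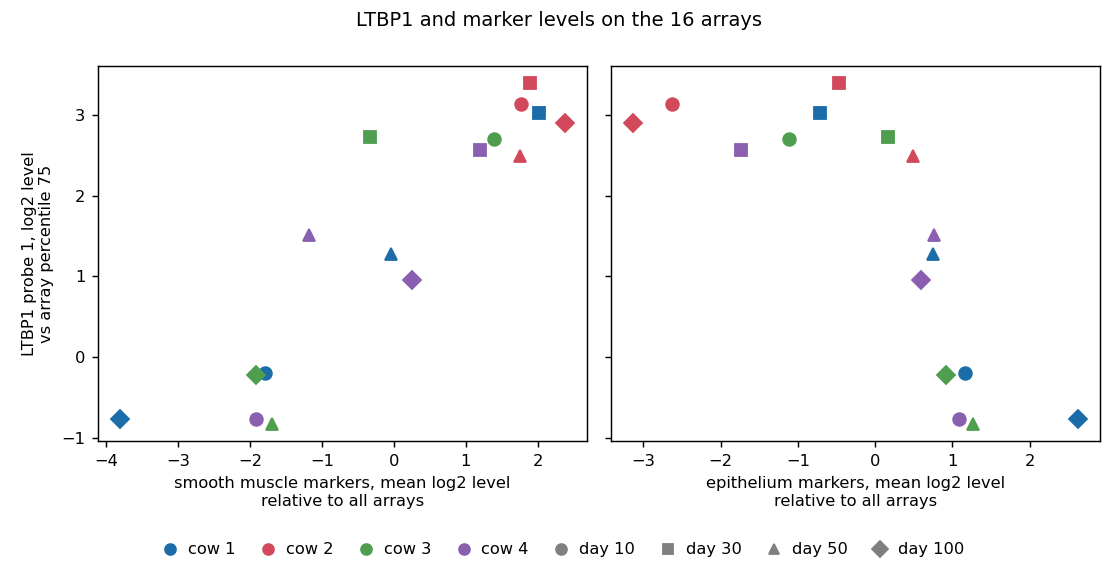
LTBP1 probe 1, as log2 intensity relative to the array percentile 75, against the mean level of smooth muscle markers (left) and epithelial markers (right) relative to all arrays, 1 point per array, coloured by cow and shaped by day. LTBP1 is between -0.83 and -0.20 on 5 arrays that are all low in smooth muscle markers, and the array with the lowest muscle and highest epithelial level is cow 1 at day 100.

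Across the set, the balance of signs moved down with time from calving. Of 18 tested probes, 9 were below 0 at day 30, 14 at day 50 and 16 at day 100 relative to day 10, against 50.4%, 52.4% and 54.3% of all tested probes. The median differences were -0.22, -0.65 and -0.99, against -0.01, -0.03 and -0.07 over all tested probes. The probes of a gene share their target and the 3 comparisons share the day 10 arrays, so these counts are not independent. The probes below 0 at day 100 but not at day 30 were the 4 of LTBP1, both of TGFBR1, and TGFBR3 probe 3. LTBP1, high at day 30, was near the day 10 level at day 50, at -0.34 to 0.01 (limma, adjusted p = 0.886 to 0.997). Arrays did not overlap and were lower in 2 probes at day 30 (4.89% of all tested probes), 7 at day 50 (8.25%) and 4 at day 100 (6.52%), and were higher in 0, 1 and 1 (3.62%, 8.64% and 4.54%).

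With an unadjusted p below 0.05, 8 probes stood out at day 50, all lower, against 9.71% lower and 8.85% higher of all tested probes. At day 100 there were 10, of which 9 were lower and TGFBR3 probe 2 was higher, against 14.9% lower and 10.9% higher of all tested probes. When the smooth muscle minus epithelial level was added to the fit, 3 probes were called at day 50 (TGFB2 and SMAD3 probes 2 and 3) and 7 at day 100 (TGFB1, TGFB2, TGFB3 probe 2, TGFBR1 probe 2, TGFBR2 probe 2 and SMAD3 probes 2 and 3), all lower. With this covariate 4.27% of all tested probes were called at day 50 and 8.24% at day 100, of which the lower ones were 2.57% and 5.27%.

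**Figure D4:**
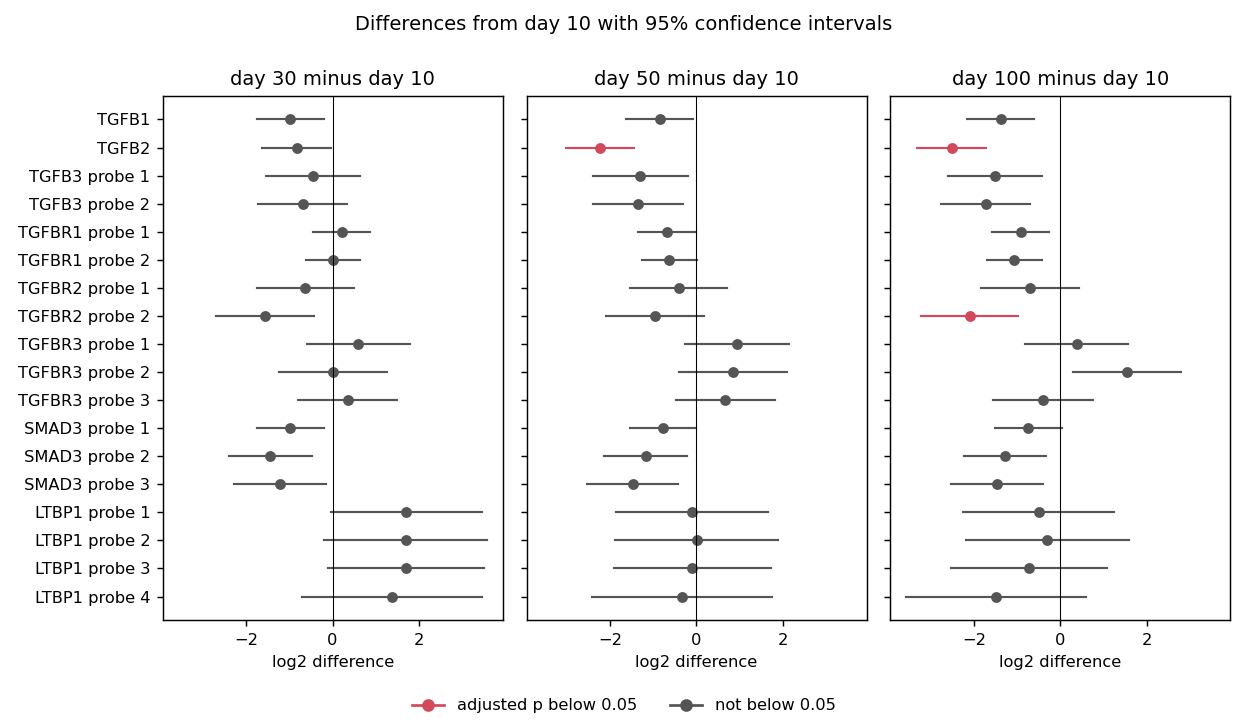
Differences of the 18 tested probes from day 10, as later minus day 10 on the log2 scale, with points for the estimate and lines for its 95% confidence interval, in red where the adjusted p passed 0.05. TGFB2 passes at days 50 and 100 and TGFBR2 probe 2 at day 100, and the widest intervals are those of LTBP1.

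Between the later times no member was called. Of 54 differences, 18 each for day 50 relative to day 30, day 100 relative to day 30 and day 100 relative to day 50, 13 had an unadjusted p below 0.05 and the lowest adjusted p by limma was 0.259. None of the 33182 tested probes was called in these comparisons either (0%), where 9.33%, 12.8% and 3.14% had an unadjusted p below 0.05. TGFB2 was lower by 1.40 at day 50 than at day 30 and by 1.68 at day 100 than at day 30, in limma's fit with adjusted p-values of 0.434 and 0.259. TGFB2 was called at day 50 relative to day 30 with array weights, and at day 100 relative to day 30 without the day 100 array of cow 2. Each was the only 1 of 31 alternative settings with that call, and the adjusted p by limma reached 0.915 and 0.704 in others.

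Other genes of the pathway were counted from 5 lists, of latency and activation factors, co-receptors and a decoy receptor, other SMADs, SMAD regulators and known target genes. Of 50 genes 47 were measured, each by its brightest probe. None was called at day 30, 1 was higher at day 50, and 1 was higher and 2 were lower at day 100, or 0%, 2.13% and 6.38% of the 47, against 0.419%, 1.65% and 4.6% of all tested probes. Their median difference from day 10 was -0.22, -0.25 and -0.40, and 33, 31 and 33 of 47 were below 0, against 50.4%, 52.4% and 54.3% of all tested probes. The count depended on the choice of probe. Over all 137 tested probes of these genes, 0% were called at day 30, 1.46% at day 50 and 16.1% at day 100. The shares of all tested probes were 0.419%, 1.65% and 4.6%. Probes of a gene share their target, and FN1, with 13 probes, gave 6 of the calls at day 100. A gene with more probes also has more chances of a call. By any probe, 7 genes were lower at day 100 in place of 2.

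The other 5 of these genes, lower at day 100 by a probe that was not their brightest, were picked after their values were seen. FN1, the matrix protein fibronectin and a known target, fell in 6 of 13 probes, with differences from -4.02 to -3.11 on the log2 scale (limma, adjusted p = 0.0294 to 0.0491), while its brightest probe was at -1.41 (limma, adjusted p = 0.107). DAB2, an adaptor protein that links receptors to SMADs, fell in 3 of 7 probes, with differences from -3.31 to -2.65. ENG (endoglin), a co-receptor, fell in 2 of 4 probes, with differences of -1.91 and -2.34. COL4A1, a collagen of basement membranes, and ITGAV, an integrin subunit that takes part in ligand activation, each fell in 1 of 4 probes, with differences of -2.35 and -1.90. All probes of these 5 genes had a difference below 0 at day 100.

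By their brightest probes, none of 10 latency and activation factors, 3 co-receptors and decoy, or 6 other SMADs passed at any time, with median differences at day 100 of -0.65, -0.86 and -0.19. The 12 SMAD regulators had a median of 0.07 at day 100. Of these, ZFYVE9 (SARA), which brings SMAD2 and SMAD3 to the receptor, was the only gene of the 5 lists that was called higher. It was called in 2 of 4 probes at day 50 and in 4 of 4 at day 100. Its levels at day 10 were -3.52, -2.90, -2.97 and -3.43 in cows 1 to 4, and -1.88, -2.38, -1.81 and -1.23 at day 30. They were -1.68, -2.15, -1.42 and -1.51 at day 50 and -1.42, -2.26, -1.04 and -0.34 at day 100, so that all later arrays lay above all day 10 arrays. The difference was 1.51 ± 0.31 at day 50 and 1.94 ± 0.31 at day 100 (SE, higher in 4 of 4 cows, limma, adjusted p = 0.0399 and 0.0112).

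PMEPA1, a target of TGF-beta that restrains SMAD2 and SMAD3, had levels of 4.46, 3.54, 3.85 and 3.71 in cows 1 to 4 at day 10, 2.77, 3.56, 3.39 and 2.37 at day 30, 2.34, 2.29, 2.23 and 2.79 at day 50, and 1.50, 2.76, 1.81 and 2.07 at day 100. The day 50 and day 100 arrays were all below the day 10 arrays. PMEPA1 fell by 1.85 on the log2 scale at day 100 (SE 0.34, 4 of 4 cows lower, limma, adjusted p = 0.0185), and its second probe gave -2.21.

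Of the 16 known target genes, 14 were below 0 at day 100 with a median of -0.48, and 1 passed by its brightest probe. This was TNC, which encodes the matrix glycoprotein tenascin C of healing tissue. TNC had levels of 4.87, 5.78, 5.71 and 4.35 in cows 1 to 4 at day 10, 3.13, 5.39, 4.72 and 0.88 at day 30, 0.61, 1.82, 1.10 and 3.97 at day 50, and -3.26, 3.16, 0.56 and 0.72 at day 100. Day 100 lay below day 10 on all arrays, with cow 1 the lowest and cow 2 the highest. TNC fell by 4.88 at day 100 (SE 1.08, 4 of 4 cows lower, limma, adjusted p = 0.0318), and its other 3 probes gave -5.61 to -3.76.

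The day 100 calls of ZFYVE9, PMEPA1 and TNC were each lost without cow 1, cow 3 or cow 4, with adjusted p-values from 0.0520 to 0.182, and with only the 8 arrays of the 2 times (limma, adjusted p = 0.159, 0.154 and 0.131). The ZFYVE9 call at day 50 was lost when any 1 of the 4 cows was left out (limma, adjusted p = 0.0515 to 0.238). The ZFYVE9 call at day 100 held without any single array. Of 16 single arrays left out in turn, 13 kept the PMEPA1 call and 9 the TNC call, and 5 kept the ZFYVE9 call at day 50.

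**Figure D5:**
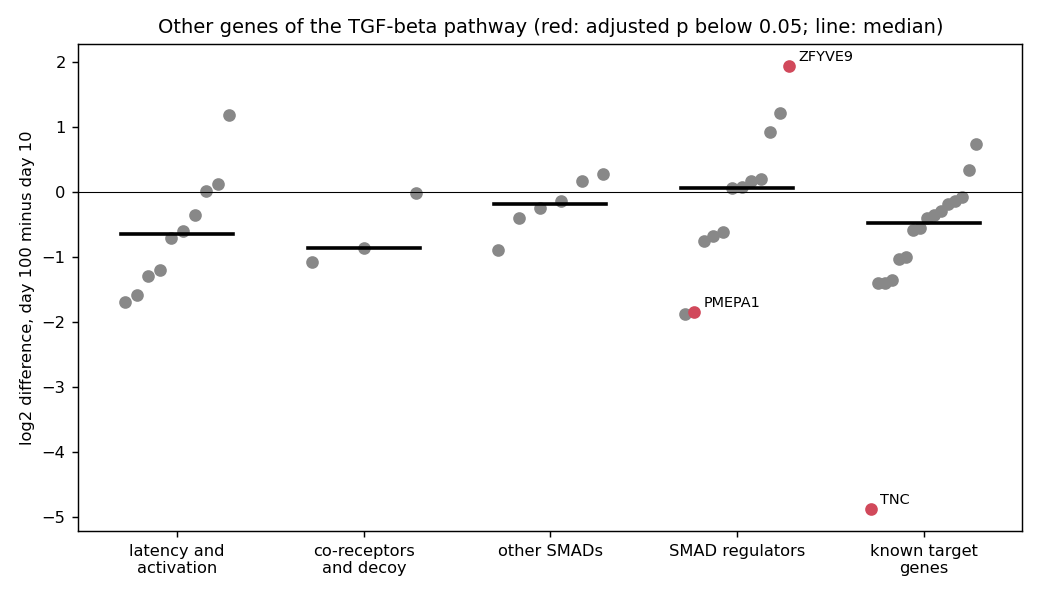
Differences of 47 other pathway genes between days 100 and 10, as day 100 minus day 10 on the log2 scale, 1 point per gene (its brightest probe) in 5 lists, with called genes in red and each list's median as a line. ZFYVE9 is the only called gene above 0, and PMEPA1 and TNC are the called genes below 0.

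Markers of other cell types were counted in the same fit. Relative to day 10, 1 of 8 fibroblast markers fell at day 100 (PDGFRB), and none of 8 endothelial and none of 9 epithelial markers passed at any time. Of 7 neutrophil markers 4 were measured. MMP9 fell at all 3 times and S100A12 at day 50, with list medians of -4.80, -5.25 and -3.73. Of 6 T and NK cell markers CD4 and NKG7 fell at day 100, none of 3 B and plasma cell markers passed, and of 3 erythroid markers HBB rose at day 100. The erythroid list ranged from 1.07 to 3.85 at day 100, against -2.43 to -0.40 at day 10, and its part in the day 100 results was not tested.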

How the data were processed

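Endometrial RNA of 4 cows at 4 times was hybridised to 16 one-colour Agilent arrays. Agilent Feature Extraction 11.5.1.1 subtracted the background from each spot and detrended the processed intensity per the file headers, with no scaling between arrays, while the submitters' processing notes name version 10.5.1.1. The deposited files also hold mean and background intensity and other columns of flags (well above background, saturated, nonuniform). The authors' deposited value table is on a log2 scale, and correlated with the values used here at 0.9998 to 1.000 per array, with column medians from -0.16 to 0.22. It was an alternative.

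From each array, log2 processed intensity minus the array's percentile 75 over spots that are not controls was used. Nonuniform spots (4 to 125 per array) were left out, spots of a probe were averaged, and probes well above background on at least 4 arrays were tested. No spot was saturated, 61.2% to 77.0% of spots per array were well above background, and the median processed signal was 51.1 to 154. The number of arrays limits the precision. Probes were fitted in R 4.3.3 with limma 3.58.1, with terms for time and cow, two-sided, and Benjamini-Hochberg adjustment over 33182 probes. The labels tie the 4 biopsies to the same animal, so cow is a true pairing, and deviations correlated with a median of 0.12 within a cow (24 pairs) and -0.04 between cows (72 pairs). In simulated data for day 100 against day 10, 100 probes were changed by 2 and 100 by 4 on the log2 scale. Of these, 57% and 88% were recovered, with 9 false calls among 33182 probes. The number of changed probes was not matched to the 1527 called in the real data.

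Names are those of the array design. For the lists, 20595 probes were renamed by accession and 376 by synonym through the RefSeq gene table (ARS-UCD2.0), the symbol of 10745 was current, and 11937 were left under their design name. The members, the 5 pathway lists, the 9 marker lists and the naming rule were chosen with earlier results of these data known. The rule names all members and genes of a pathway list called in any difference (up to 4 per list, by the F test). It also names the 3 genes most like the member with the smallest F test p. Members, LOC symbols and probes left under their design name were not candidates for these 3. A list gene is represented by its brightest probe. Alternatives were quantile normalisation, normexp background correction (offset 50), the authors' values, other filters on dim probes, another percentile, no cow term, array weights, a marker covariate, and leaving out cows or arrays.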

Additional observations from a re-analysis of the deposited data

Results flagged for a closer look

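In each time group of 4 arrays, the highest or lowest array was compared with its nearest neighbour, as the gap over the range of the group, against Dixon's 95% critical value. Of 84 groups of a probe and a time, 7 exceeded it, where chance alone exceeds it in about 1 group in 20. TGFB3 probe 1 in cow 4 at day 30 read 2.96, against 1.59 in the nearest cow, and TGFB3 probe 2 in the same biopsy read 0.13, against -0.85. LTBP1 probe 2 was lowest in that biopsy as well, at 1.46, against 2.07 in the nearest cow. TGFBR1 probe 1 read -4.64 in cow 2 at day 30, against -5.26. SMAD3 probes 1 and 3 in cow 1 at day 100 read 0.0684 and -5.50, against -1.26 and -6.82 in the nearest cow. SMAD7 read -4.10 in cow 1 at day 10, against -8.45 in the nearest cow, which was not well above background.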

How the results depend on the processing

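Over 31 alternatives, the 18 tested probes and 6 differences gave 3125 values that kept direction and call, 33 that gained a call, 34 that lost one and 138 changes of sign among uncalled values. No called value changed sign. TGFB2 kept its call in 23 of 31 at day 50 (-2.42 to -1.85) and in 27 of 31 at day 100 (-2.95 to -1.86). Without the replicate block (no cow term), the TGFB2 adjusted p was 0.00923 at day 50 and 0.00305 at day 100 by limma, TGFBR1 probe 2 passed at day 100 (0.0429) and ZFYVE9 did not pass at day 50 (0.0584). ZFYVE9 at day 50 was also lost without a filter on dim probes (0.0509) and with the 8 arrays alone (0.0545). The cause of these changes was not tested.

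Counts of all called probes moved as follows. For day 30 relative to day 10 (139), 57 were called with no replicate block, 373 with array weights and 4 with the 8 arrays alone. For day 50 relative to day 10 (547), 1443 were called without the day 100 arrays of cows 1 and 2, 4306 with array weights, 1416 with the marker covariate and 888 with 8 arrays. For day 100 relative to day 10 (1527), the covariate gave 2734 and 8 arrays gave 44. For day 50 relative to day 30 (0), 10 were called without the day 100 arrays of cows 1 and 2 and 188 with array weights, and for day 100 relative to day 30 (0), 44 without those arrays. The F test (342) called 846, 1904 and 715 without those arrays, with weights and with the covariate. Leaving out cows or arrays gave 14 to 220, 21 to 970 and 75 to 3104 for days 30, 50 and 100 relative to day 10, 0 to 1 for day 50 relative to day 30, 0 to 112 for day 100 relative to day 30 and 19 to 1165 for the F test.

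Member probes called at day 50 (1) were 4 with array weights, 3 with the covariate, against 4.27% of all tested probes, and 2 with 8 arrays. The counts of all probes called with these settings stand above. Member probes called at day 100 (2) were 1 with quantile, normexp or no filter and 4 with the percentile over probes detected on all arrays. For these settings no share over all tested probes is given. With the covariate 7 were called, against 8.24% of all tested probes, and with 8 arrays 0. At day 50 relative to day 30 (0), 1 was called with array weights, and in the F test (1), 2 with the covariate. Leaving out cows or arrays gave 0 to 1 member probes at day 50, 0 to 7 at day 100, 0 to 1 for day 100 relative to day 30 and 0 to 2 in the F test.

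With 4 cows, a log2 difference had a median standard error of 0.36, and dim probes (SMAD7, TGFBR1, TGFB3 probe 3) are limited by signal over background.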

Other observations

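In the search for genes like TGFB2, probes left under their design name, LOC symbols and the members were not candidates. Of the other genes, RAB31, PLXDC2 and MAN1A1 had the course over the 16 arrays most like that of TGFB2. RAB31 is a small GTPase of vesicle traffic, PLXDC2 a plexin domain membrane protein and MAN1A1 a mannosidase of glycoprotein processing. After each probe was centred on its mean, they differed from TGFB2 by a root mean square of 0.403, 0.414 and 0.450 on the log2 scale, against a median of 1.23 over all tested probes. They were lower at day 100 than at day 10 by 2.71, 1.85 and 2.84 on the log2 scale. They were picked for this likeness, so no test is given, and the likeness is a description of these arrays.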
